A study of Homo sapiens with 4 samples.

Results

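The let-7 family was followed through 4 samples of RPMI8226, a cell line established from a human multiple myeloma. Its members were chosen by name and not by a measured value: the assays of hsa-let-7a, hsa-let-7b, hsa-let-7c, hsa-let-7d, hsa-let-7e, hsa-let-7f, hsa-let-7g and hsa-miR-98 (without the species prefix below), 8 of the 377 human miRNA assays on the TaqMan array card. The samples were the exosome fraction of the culture medium at 1% oxygen (hypoxia), the exosome fraction at 20% oxygen (normoxia), the cells at 1% oxygen and the cells at 20% oxygen, each after 24 h and with no other treatment or genetic change named in the labels. Each group was 1 sample and each miRNA had 1 well per sample, so the differences between groups have no replicate error and no p-value is given. The exosome fraction holds the small vesicles that cells release, here precipitated with a polymer reagent from cleared and filtered medium, so other material of the medium may be present in it. Only the exosome samples were pre-amplified, per the labels' protocols.

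let-7 is an ancient miRNA family, first found in the nematode Caenorhabditis elegans, where it times the passage from larva to adult. In mammals its members accumulate as cells differentiate and repress growth-promoting genes such as those of RAS proteins and HMGA2, while the RNA-binding protein LIN28 blocks the maturation of their precursors. A miRNA recognises its target mRNAs mainly through its seed, bases 2 to 8 counted from 1 at the 5′ end. Members with the same seed are therefore expected to share many targets, whichever gene they come from.

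The mature sequences are shown because the 8 assays must tell apart RNAs that differ by very few bases. They are from RefSeq (GRCh38.p14), written 5′ to 3′, with the seed in capitals. The assay names carry no arm, and the guide arm (5p) was read for each member, as in the naming of the time.
let-7a: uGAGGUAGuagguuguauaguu
let-7b: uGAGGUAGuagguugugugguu
let-7c: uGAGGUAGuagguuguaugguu
let-7d: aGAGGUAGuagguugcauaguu
let-7e: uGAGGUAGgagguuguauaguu
let-7f: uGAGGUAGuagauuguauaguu
let-7g: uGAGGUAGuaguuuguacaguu
miR-98: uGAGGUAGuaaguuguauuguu

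All 8 assayed members were found in RefSeq and carry 1 seed, GAGGUAG. Any let-7 family member without an assay on the card is not covered here. Of the 22 bases, 14 are identical in all 8. Relative to let-7a, let-7c carries A19G, let-7e carries U9G and let-7f carries G12A, each a single difference. let-7b carries A17G and A19G, let-7d carries U1A and U16C, let-7g carries G12U and U18C, and miR-98 carries G11A and A19U. Among the 326 assays matched to a mature sequence by name, with both arms taken where the name gives none, no assay outside the family had this seed. The assay of miR-202, read as its 3p arm, shares the first 6 bases of the seed and differs in the last:
miR-202: aGAGGUAUagggcaugggaa

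The family's genes are spread over the genome, and several lie beside each other (positions are those of the mature RNAs in GRCh38.p14). let-7a comes from 3 genes, at chr9:94175962-94175983 (plus strand), chr11:122146568-122146589 (minus strand) and chr22:46112752-46112773 (plus strand), and let-7f from 2, at chr9:94176353-94176374 (plus strand) and chrX:53557246-53557267 (minus strand), so these 2 assays cannot tell which gene was active. let-7d lies near the chromosome 9 copies at chr9:94178841-94178862 (plus strand), let-7b near the chromosome 22 copy at chr22:46113691-46113712 (plus strand), and miR-98 near the chromosome X copy at chrX:53556299-53556320 (minus strand). miR-98 and the chromosome X copy of let-7f lie within the span of HUWE1, a ubiquitin ligase gene. let-7g lies within the span of WDR82 at chr3:52268336-52268357 (minus strand), let-7e within that of SPACA6 at chr19:51692793-51692814 (plus strand), and let-7c within that of the long non-coding RNA gene MIR99AHG at chr21:16539838-16539859 (plus strand).

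The measured quantity is the threshold cycle (Ct), the cycle number at which the PCR signal passes a set level, so a lower Ct stands for more template. A Ct of 35 is the highest in the table and was read as not detected. Between 219 and 221 of the 377 assays had a Ct under 35 in the exosome samples and between 155 and 162 in the cell samples. Fewer vesicles and less of a miRNA per vesicle cannot be told apart by these measurements. The only RNA with repeat wells was U6, a small nuclear RNA, at a Ct of 18.81 ± 0.12 in hypoxic cells and 18.82 ± 0.15 in normoxic cells (SD, n = 4 wells of 1 sample). The pooled SD of a U6 well was 0.137 cycles, which gives 0.194 cycles for a difference between 2 wells. This is a yardstick from an abundant RNA in cells, and the error of wells near Ct 30 was not measured. Nor was that of the pre-amplified exosome wells, where U6 stood at 35. The 6 blood and lymphoid assays, which include miR-142-3p and miR-150, were under 35 in all 4 samples, and the liver assay miR-122 was at 35 in all 4. Markers of other cell types were also detected in the exosome fraction. The muscle miRNA miR-133a stood at 28.07 in hypoxia and 27.94 in normoxia there, against 32.96 in hypoxic cells and 35 in normoxic cells, and the muscle miRNA miR-1 at 32.14 and 33.09 there, against 35 in both cell samples. The epithelial miRNA miR-205 stood at 26.97 and 26.96 in the hypoxic and normoxic exosome fraction, against 33.98 and 33.10 in the cells, while the epithelial miR-200c was at 35 in both exosome samples. Of the 3 red cell assays, 1 (miR-451, Ct 33.19) was detected, in the normoxic exosome fraction. Their part in the let-7 values was not tested. Ct values also lay close to whole cycles: 63.4% of the 757 Ct values under 35 were within 0.1 of a whole number. Of the 26 such values of the let-7 family, 16 were.

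Of the 8 members, 5 were detected in both exosome samples, and all 8 in both cell samples. None was seen in the exosome fraction only. let-7b, let-7c, let-7d, let-7e and let-7g were present in all 4 samples. let-7a, let-7f and miR-98 were detected in cells only and stood at 35 in both the hypoxic and the normoxic exosome fraction. For each member, detection was the same at 1% and at 20% oxygen.

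In the exosome fraction let-7b had the lowest Ct of the family, 21.99 in hypoxia and 21.65 in normoxia, and ranked 37 and 32 among the miRNAs detected there. let-7e was next at 22.98 in hypoxia and 22.37 in normoxia. let-7c stood at 23.98 in hypoxia and 23.92 in normoxia. let-7g stood at 24.00 in hypoxia and 23.50 in normoxia. let-7c and let-7g were 0.02 cycles apart in hypoxia, below the yardstick, and 0.42 cycles apart in normoxia. let-7d was last of the detected members at 27.97 in hypoxia and 27.91 in normoxia, 3.97 cycles behind let-7g in hypoxia and 3.99 behind let-7c in normoxia.

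In the cells the order was different. let-7g came first, at a Ct of 27.76 in hypoxia and 27.96 in normoxia, and ranked 31 and 35 among the miRNAs detected there. let-7e followed at 28.77 in hypoxia and 28.96 in normoxia, and let-7b came after them at 30.00 in hypoxia and 29.55 in normoxia. let-7a and let-7c came next and were not separated: let-7a had a Ct of 30.97 in hypoxia and 30.76 in normoxia, and let-7c had 30.96 in hypoxia and 30.91 in normoxia, gaps of 0.01 and 0.15 cycles that are below the yardstick. let-7d stood at 31.97 in hypoxic and 31.50 in normoxic cells. let-7f stood at 31.19 in hypoxic and 31.92 in normoxic cells, so let-7d and let-7f changed places between the oxygen conditions. miR-98 was last in both, at 33.88 in hypoxia and 34.97 in normoxia, and the normoxic value lies 0.03 cycles from the ceiling. The order is one of Ct values, and since each assay has its own efficiency it is not an order of copy numbers.

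**Figure D1:**
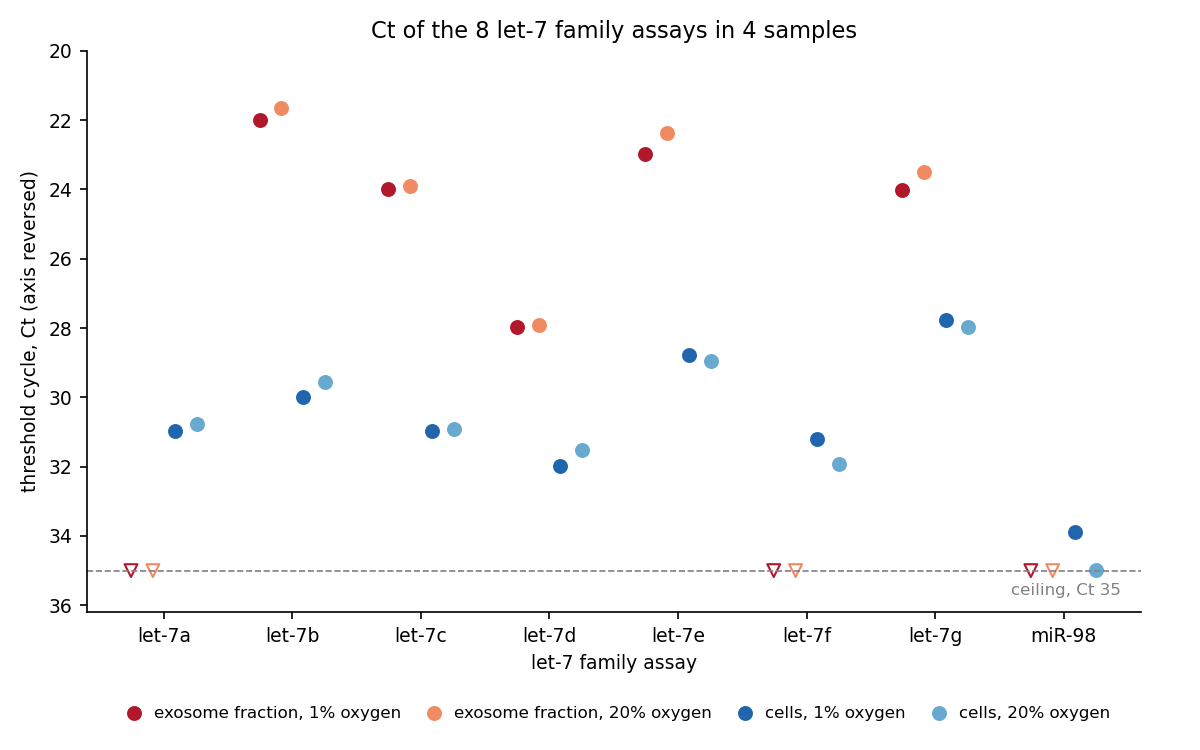
Threshold cycle of each let-7 family assay (horizontal axis) in the hypoxic and normoxic exosome fraction and the hypoxic and normoxic cells. Each point is 1 well, the vertical axis is reversed so that more template is higher, and open triangles at 35 mark assays not detected; let-7a, let-7f and miR-98 have such triangles in both exosome samples, while the other 5 members lie between 21.65 and 27.97 there.

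let-7a and let-7f were not detected in the exosome fraction, where most miRNAs of their cellular level were. Of the 94 assays with a Ct under 32 in both cell samples, 3 stood at 35 in both exosome samples (3.19%), and 2 of these 3 were let-7a and let-7f. The third was miR-103, named after its value was seen, at a Ct of 28.99 in hypoxic and 29.06 in normoxic cells. Over the 147 assays detected in both cell samples, 7 were at 35 in both exosome samples (4.76%), among them the 3 let-7 members. let-7c, a single base from let-7a and within 0.15 cycles of it in both cell samples, had an exosome Ct near 24. In the exosome fraction let-7e, also a single base from let-7a, had a Ct of 22.98 in hypoxia and 22.37 in normoxia. The 3 members at the ceiling have 8 (let-7a), 7 (let-7f) and 7 (miR-98) G or C bases of 22. The 5 detected ones have 10 (let-7b), 9 (let-7c), 9 (let-7d), 9 (let-7e) and 8 (let-7g), so the groups touch at 8. Whether base content has a part in detection was not tested. Since only the exosome samples were pre-amplified, compartment and pre-amplification cannot be told apart. In the authors' deposited table the exosome ratio of let-7a, let-7f and miR-98 is 1.0376, the value that all 140 assays at 35 in both exosome samples have, and it is not a measured ratio.

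**Figure D2:**
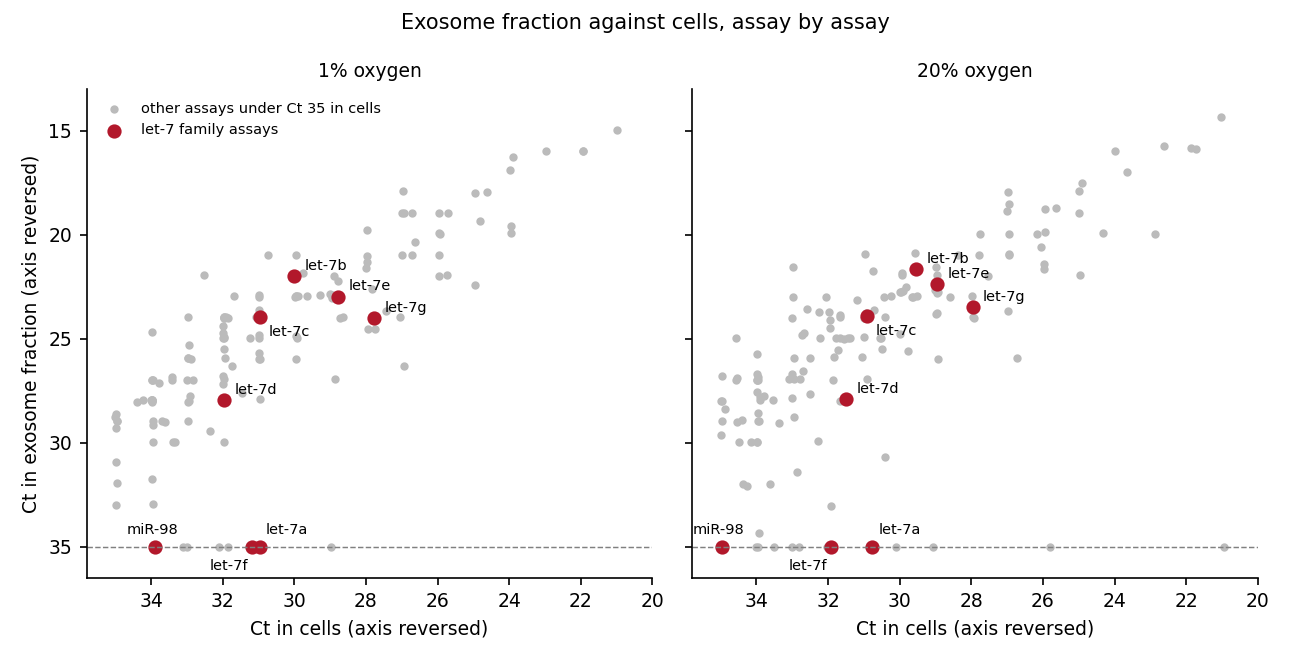
Threshold cycle in the exosome fraction (vertical) against that in cells (horizontal) for every assay under 35 in cells, at 1% and at 20% oxygen, with both axes reversed. Red points are let-7 family assays, and the dashed line is the ceiling of 35; let-7a and let-7f lie on it at cellular Ct values where most grey points (other assays) are far above it.

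The effect of oxygen on the family in the exosome fraction was small. Changes are log2 values of hypoxia over normoxia after subtraction of the Ct of the spike-in ath-miR159, a plant miRNA added at lysis, which was 22.99 in hypoxia and 22.94 in normoxia. The log2 change was -0.55 for let-7e (1.47-fold lower in hypoxia), -0.45 for let-7g (1.37-fold lower) and -0.29 for let-7b (1.23-fold lower). let-7c and let-7d gave -0.01 each. All 5 values were below 0, those of let-7c and let-7d by only 0.01, as were 118 of the 203 assays detected in both exosome samples. The median was -0.29 over the members, against -0.07 over all 203 assays. None of the 5 was past 2-fold, where 7.39% of the 203 assays were (3.94% higher and 3.45% lower in hypoxia). All 5 lay inside the middle 95% of assays, which ran from -1.36 to 1.36. A change at least as large as that of let-7e, in either direction, was found in 18.7% of assays.

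The sign for let-7c and let-7d depended on the normalizer. With each sample's median Ct in place of the spike-in every exosome change moved up by 0.20, and let-7c and let-7d were then at 0.19 each, while let-7e was at -0.35, let-7g at -0.25 and let-7b at -0.10. The value of let-7b was then within the yardstick of 0.194 cycles, and those of let-7e and let-7g were beyond it and below 2-fold. The yardstick is from cell wells, so it does not give the error of these exosome values. All 5 hypoxic exosome Ct values of the family lay within 0.1 of a whole cycle, against 2 of 5 in the normoxic exosome fraction. Over all assays detected in each, the shares were 67.1% in the hypoxic and 61.1% in the normoxic exosome fraction. Without let-7c and let-7d, near a whole cycle in both samples, the median change was -0.45.

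In cells, the average Ct of the 4 U6 wells served as normalizer. miR-98 had a log2 change of 1.09 (2.12-fold higher in hypoxia) and let-7f one of 0.73 (1.66-fold higher). let-7g and let-7e were at 0.19 each, at the size of the yardstick. let-7c was at -0.06, let-7a at -0.22, let-7b at -0.46 and let-7d at -0.47 (1.39-fold lower in hypoxia). The family had no common direction: 4 members were above 0 and 4 below, with a median of 0.06, against 0.03 over the 147 assays detected in both cell samples.

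Of the 8 members, 1 was at least 2-fold higher in hypoxic cells and 0 at least 2-fold lower, against 7.48% higher and 6.12% lower among all 147 assays (13.6% either way). That member was miR-98, whose Ct values of 33.88 in hypoxia and 34.97 in normoxia are the highest of the family, and with the small nucleolar RNAs RNU44 and RNU48 as normalizers its change was 0.94. The middle 95% of all assays ran from -1.19 to 1.31 and held all 8 members. A change as large as that of miR-98 was found in 10.2% of assays, and one as large as that of let-7f in 21.8%. let-7f and miR-98, whose hairpins lie 850 bases apart on chromosome X, had the highest changes of the family. let-7f can also come from chromosome 9, where its hairpin lies 310 bases from that of let-7a and 2400 from that of let-7d. The changes of let-7a and let-7d were below 0. Whether gene position has a part in these changes was not tested.

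**Figure D3:**
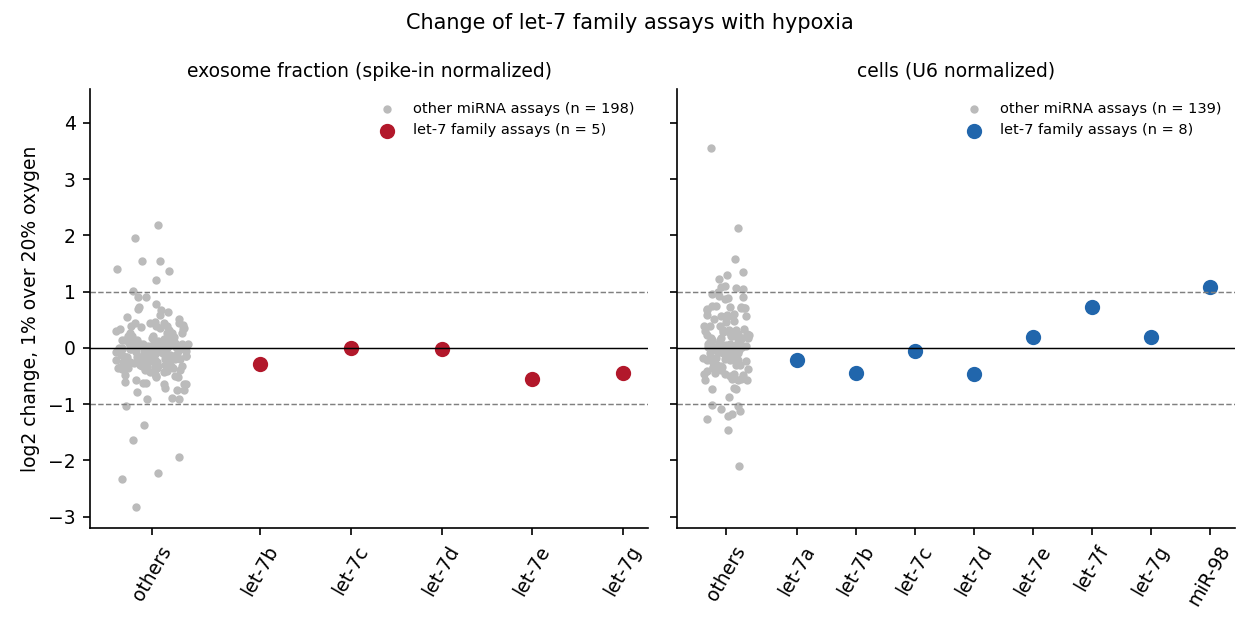
Log2 change at 1% over 20% oxygen in the exosome fraction (normalized to the spike-in) and in cells (normalized to U6). Coloured points are let-7 family assays and grey points all other miRNA assays under 35 in both samples, spread sideways for visibility; dashed lines mark 2-fold, which only miR-98 in cells passes among the family.

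For the 5 members detected everywhere, the change in the exosome fraction was set against that in the cells. The difference, exosome fraction minus cells, was -0.74 for let-7e and -0.65 for let-7g, each below 0 in the exosome fraction and above 0 in cells. It was 0.46 for let-7d, 0.16 for let-7b and 0.05 for let-7c, which were below 0 in both compartments. The median was 0.05, against -0.17 over the 138 assays detected in all 4 samples. None of the 5 differences was past 2-fold, while 15.9% of the 138 were.

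Members differed widely in the step between compartments. The step in Ct between cells and exosome fraction can be compared between members without any normalizer, because a sample's RNA amount is common to all its wells. The efficiency of each assay in pre-amplification, which enters the exosome Ct alone, was not measured. let-7b had the largest step, its Ct being 8.0 cycles lower in the exosome fraction than in cells in hypoxia and 7.90 lower in normoxia. The step was 6.98 and 6.99 cycles for let-7c in hypoxia and normoxia, and 5.79 and 6.59 cycles for let-7e. let-7d had 4.0 cycles in hypoxia and 3.60 in normoxia, and let-7g 3.76 in hypoxia and 4.47 in normoxia. The median step of the 138 assays was 6.15 cycles in hypoxia and 6.51 in normoxia. The order let-7b, let-7c, let-7e was the same in both oxygen conditions, and let-7d and let-7g stood behind these 3 in both but changed places with each other.

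Relative to let-7g, let-7b was enriched in the exosome fraction over cells 18.9-fold in hypoxia and 10.8-fold in normoxia, if each cycle is a doubling. For let-7b relative to let-7d these values were 16.1-fold in hypoxia and 19.7-fold in normoxia. let-7b relative to let-7c, from which it differs by a single base, gave only 2.04-fold and 1.88-fold. The 3 members at the ceiling have bounds computed against Ct 35. Relative to let-7c, let-7a was at least 2057-fold lower in the exosome fraction than in cells in hypoxia and at least 2403-fold lower in normoxia. The bounds for let-7f were 1768-fold in hypoxia and 1071-fold in normoxia, and those for miR-98, whose cellular Ct was already close to the ceiling, 274-fold and 130-fold. These bounds rest on 1 well per sample, in 2 exosome samples. The folds and bounds also take the assays to have pre-amplified alike, which was not measured.

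**Figure D4:**
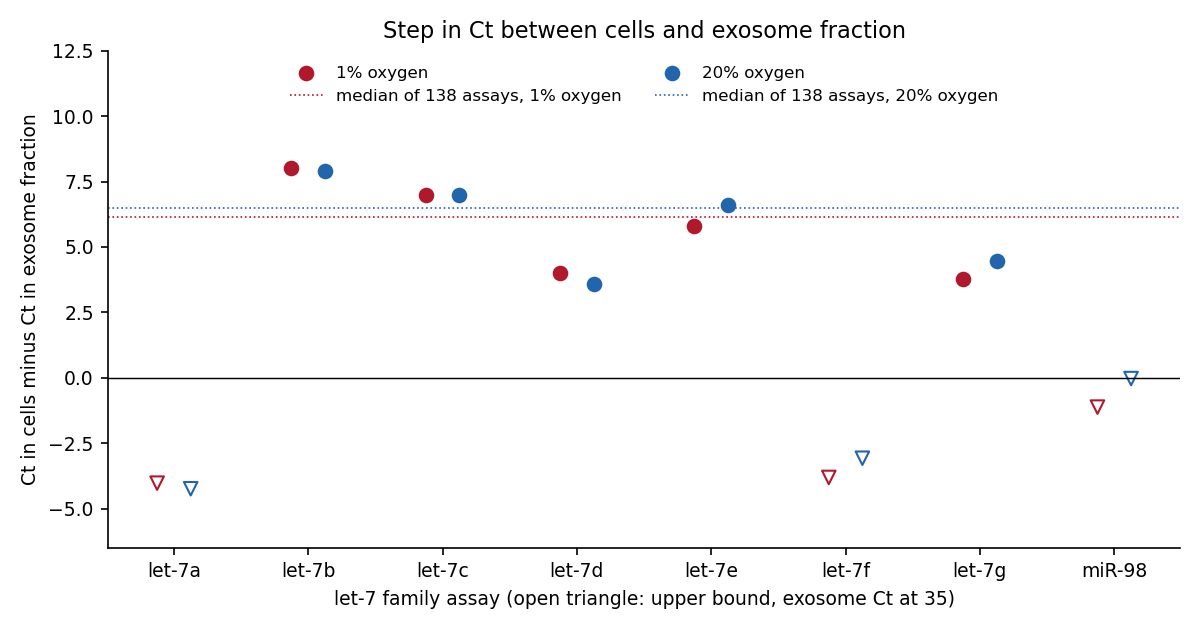
Ct in cells minus Ct in the exosome fraction for each let-7 family assay at 1% and at 20% oxygen. Filled points are measured, open triangles are upper bounds for assays at 35 in the exosome fraction, and dotted lines are the medians of the 138 assays detected in all 4 samples (6.15 and 6.51 cycles); let-7b and let-7c lie above the lines, let-7d and let-7g below them, and let-7a, let-7f and miR-98 below 0.

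Set against each sample's median Ct over the 138 assays, let-7d and let-7g were at least 4-fold lower in the exosome fraction than in cells in both oxygen conditions, with log2 values of -2.99 in hypoxia and -3.35 in normoxia for let-7d and of -3.22 in hypoxia and -2.48 in normoxia for let-7g. These are 2 of the 5 measured members, against 16.7% of the 138 assays, and none was 4-fold higher in both, against 2.9%. let-7b was at 1.02 in hypoxia and 0.95 in normoxia, let-7c at -0.01 and 0.04, and let-7e at -1.19 and -0.36. No RNA serves as a control in both compartments, so these values are positions within a sample. In normoxia let-7g fell short of 4-fold lower with the mean Ct (-1.83) and with a Ct under 32 in all 4 samples (-1.74). Under that Ct limit let-7d in hypoxia was at -1.9955, just short of 4-fold, and let-7b was at 2.01. With the median over all miRNAs detected in each sample, let-7d moved to -0.01 in hypoxia and -0.56 in normoxia, and let-7g to -0.25 in hypoxia and 0.31 in normoxia, so that neither was 4-fold lower. Under the same centring let-7b was at 3.99 in hypoxia and 3.74 in normoxia and let-7c at 2.97 and 2.83, both past 4-fold higher, and let-7e at 1.78 and 2.43. The differences between members do not depend on the centring. The 5 members detected everywhere differed among themselves about as much as the 138 assays, which include them. The SD of the log2 values was 1.84 over the 5 members and 1.73 over the 138 assays in hypoxia, and 1.80 and 1.79 in normoxia. let-7a, let-7f and miR-98 are not in this SD, as they have bounds only. Their values were at most -11.01, -10.79 and -8.10 in hypoxia and -11.19, -10.03 and -6.98 in normoxia, so all 8 members were more spread than the 5. The 138 assays leave out every assay at the ceiling too, so the spread of all 8 was not compared with that of other assays.

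Several let-7 genes share a genomic cluster with miR-99, miR-100 and miR-125 genes and can be cut from the same primary transcript. Measured between hairpins, let-7c lies 658 bases from miR-99a on chromosome 21, and let-7e 104 bases from miR-99b and 389 from miR-125a on chromosome 19. On chromosome 11 a let-7a gene lies 5635 bases from miR-100 and 46677 from the miR-125b gene MIR125B1. Another miR-125b gene, MIR125B2, was not located here. All 5 partner assays (miR-99a, miR-99b, miR-100, miR-125a-5p and miR-125b) were detected in all 4 samples. With oxygen 0 of 5 were past 2-fold, against 7.39% of 203 assays in the exosome fraction and 13.6% of 147 in cells, too few to differ from those shares. Their median log2 change was 0.15 in the exosome fraction (from -0.35 to 0.31) and 0.39 in cells (from 0.07 to 0.67). The medians over all assays were -0.07 and 0.03. On chromosome 21 the step in Ct of miR-99a was 6.07 cycles in hypoxia and 6.65 in normoxia, against 6.98 and 6.99 for let-7c. On chromosome 19 the step of miR-99b was 6.66 and 7.10 cycles in hypoxia and normoxia, and that of miR-125a-5p 2.24 and 2.38 cycles, on either side of let-7e. The steps of miR-100 were 6.16 and 6.55 cycles and those of miR-125b 6.93 and 7.40 cycles. For let-7a the exosome Ct exceeded the cellular Ct by at least 4.03 cycles in hypoxia and at least 4.24 in normoxia. The assays of let-7a and miR-125b do not tell gene copies apart, so these values are not of the chromosome 11 cluster alone.

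miR-202, with the let-7-like seed shown above, was detected in the exosome fraction only, at a Ct of 31.48 in hypoxia and 32.97 in normoxia. In detection that is the reverse of let-7a, let-7f and miR-98. More assays were under 35 in the pre-amplified exosome samples (219 in hypoxia and 221 in normoxia) than in the cell samples (155 and 162), so the pattern of miR-202 is not rare. The assays with the profile most like the mean of the 5 members detected everywhere, by Euclidean distance over the 4 samples of Ct minus the sample's median, were miR-31 (1.23 cycles), miR-886-3p (1.26 cycles) and miR-574-3p (1.43 cycles). The members themselves lay between 1.57 (let-7c) and 6.16 cycles (let-7d) from that mean.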

How the data were processed

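The authors measured miRNAs by TaqMan array card and deposited a table of Ct values, a score per well that is not normalized, and a table of the ratio of hypoxia over normoxia (Data Assist Software 3.1, per the series' design text). The sources used here do not say how the ceiling of 35 came about. Recomputed log2 ratios and those of the authors' deposited table were within 0.000356 of each other. Log2 changes here are negative differences of normalized Ct (U6 mean in cells, ath-miR159 in the exosome fraction), over assays under 35 in both samples. Groups hold 1 sample each and were not tested; an additive fit of oxygen and compartment, which would take the difference in response between compartments as its error, was not run. A single Ct gives no count or depth. The calculation was checked on simulated 4-fold changes with the noise of U6 wells. The simulation held no smaller changes and no values at the ceiling, so it checks the code and not the error of the let-7 values.

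The family was picked for description, and the lists and thresholds were chosen, with earlier results of these data known, while the members follow from their names. Named miRNAs are the 8 members, control RNAs, 5 cluster partners, miR-202, the 3 most similar profiles, cell type markers and those marked as named later. miRNAs were matched to RefSeq by name, with Python 3.11.15 and pandas 2.3.3. Alternatives were other normalizers, a Ct limit of 32, U6 wells left out and members near whole cycles left out, the last chosen after seeing the data. Of the marker lists, red cell assays were detected in 0 of 3 cases in the hypoxic exosome fraction, 1 of 3 in the normoxic one (Ct 33.19) and 0 of 3 in either cell sample. Of 2 epithelial assays, 1 was detected in each exosome sample and 2 in each cell sample.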

Additional observations from a re-analysis of the deposited data

Results flagged for a closer look

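let-7e and let-7g had changes with hypoxia of opposite sign in the 2 compartments. let-7e was at -0.55 on the log2 scale in the exosome fraction and 0.19 in cells, a difference of -0.74, and let-7g at -0.45 in the exosome fraction and 0.19 in cells, a difference of -0.65. The difference was not tested, because each group is 1 sample, and both cellular changes were no larger than about the SD of a difference between 2 U6 wells (0.194). With RNU44 and RNU48 as normalizers in cells the cellular changes were 0.04 and 0.05, and the differences -0.59 and -0.50.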

How the results depend on the processing

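The median change of the family in cells (0.06) lay between -0.08 and 0.19 under all alternatives run. The count of members past 2-fold in cells was 0 in place of 1 with RNU44 and RNU48 as normalizers and 0 with a Ct under 32 required, which leaves out miR-98. In the exosome fraction the median was -0.29, and -0.10 with the sample median as normalizer, -0.35 with none and -0.45 without let-7c and let-7d, whose Ct values lie near whole cycles (an alternative chosen after seeing the data), and the count past 2-fold was 0 under every alternative run. The median position of the exosome fraction against cells depended on the centring. In hypoxia it was -1.19, and -0.26 with the mean Ct, 1.78 with the median over all miRNAs detected in a sample and -0.20 with a Ct under 32 in all 4 samples. In normoxia it was -0.36, and 0.30, 2.43 and 0.39 under the same alternatives, with 1 member past 4-fold in place of 2 under the mean Ct and 1 under the Ct limit. let-7g in normoxia turned from -2.48 to 0.31 with the median over all detected miRNAs. The differences between members are the same under each of these centrings. Of 138 values of single members under the alternatives, 103 moved by less than 0.194, 34 by more, and 1, let-7g in normoxia, changed sign from a value past its fold threshold. With that one, 11 changed sign, 8 of them in the exosome fraction against cells and 3 among the changes and responses of let-7c and let-7d. The 103 include values that could not move, so their number is no measure of stability. For changes with oxygen and responses the Ct limit only leaves members out. The whole-cycle alternative does the same, and the bounds altered no value. No member was at the ceiling in only 1 sample of a compartment, so bounds changed no median. No paired analysis was possible because the labels give no replicate numbers, and with 1 sample per group no replicate could be left out.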
